A study of Mus musculus with 5 samples.

Results

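The transcription factors of the C/EBP family and other factors of myeloid cells were followed across 5 Affymetrix whole-genome mouse arrays. The set was chosen by gene symbol: Cebpa, Cebpb, Cebpd, Cebpe, Cebpg, Spi1, Gfi1, Irf8 and Klf4. Of these 9 genes, 8 were paired with a probe set in the platform annotation used here, through 14 of the 45101 probe sets on the array. Cebpe was paired with none and was not analysed here. The submitters describe each array as total RNA of bone marrow cells enriched with magnetic beads for B220. This is a surface form of CD45 carried by developing B cells. The mice were 4 weeks old on the FVB background. KA/KA stands for IKKα K44A/K44A, a knock-in that leaves this NF-κB kinase without activity on both alleles, and 3 arrays carried it; the other 2 came from wild-type littermates (WT). Nothing in the labels says if an array held a single animal or a pool. The p-values therefore measure only how much these arrays vary, which may be technical. Their number limits the precision.

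C/EBP proteins bind DNA as pairs through a basic region and a leucine zipper, and they drive genes of granulocytes, monocytes, fat, liver and lung epithelium. In marrow, C/EBPα opens the granulocyte and monocyte programme, PU.1 (encoded by Spi1) serves both myeloid and early B cells, Gfi1 represses monocyte genes on the way to neutrophils, and IRF8 and KLF4 act in monocytes and dendritic cells. IRF8 is also a factor of B cells, and KLF4 is abundant in epithelium and endothelium.

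The arrays fell into 2 sets that cut across genotype, and these must be kept apart in every comparison. Spike-in controls of bacterial origin, read by 24 probe sets, separated them: their median signal was 11897 for KA/KA 1 and 7305 for WT 1, but 136 for KA/KA 2, 249 for KA/KA 3 and 46.9 for WT 2. KA/KA 1 and WT 1 are called the marrow-like pair and the remaining 3 the lung-like arrays. These sets were defined from control signals after the data were seen and are not groups of the study. All values are log2(signal + 16), a scale on which the array medians were 6.80 to 7.17. Over 16 B-lineage genes the mean level was 12.51 and 12.60 on KA/KA 1 and WT 1 and 8.22, 8.66 and 7.96 on KA/KA 2, KA/KA 3 and WT 2. The largest set difference of this list was that of Rag1. Its level was 12.80 and 12.79 on KA/KA 1 and WT 1. On the lung-like arrays it was 4.09 to 4.10, near the floor of this scale. Of the 16 genes, 0 lay below the array median on the pair, and 7, 6 and 6 on KA/KA 2, KA/KA 3 and WT 2. Cd79b (9.44, 11.10 and 9.39), Ms4a1 (8.66, 10.97 and 9.49) and Blnk (11.58, 10.40 and 8.95) were lower there than on the pair, but above the array medians. Other genes of the list were bright on both sets: Ptprc, which encodes CD45 and is shared by all white blood cells, read 13.57 and 13.74 on the pair and 12.62, 13.48 and 11.93 on KA/KA 2, KA/KA 3 and WT 2. Its set difference did not pass (limma, adjusted p = 0.111), nor did those of Il7r and Cd24a. Over 14 lung epithelial genes the mean was 6.30 and 5.99 on the pair and 12.39, 12.78 and 12.62 on the lung-like arrays. Bright lung genes and a lower B-lineage mean go against the bone marrow B220 label of these 3 arrays. Several B-lineage genes nevertheless stayed above the array medians there. Whether the arrays match their labels was not tested. In bulk RNA, fewer cells of a type and less RNA per cell cannot be told apart.

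**Figure D1:**
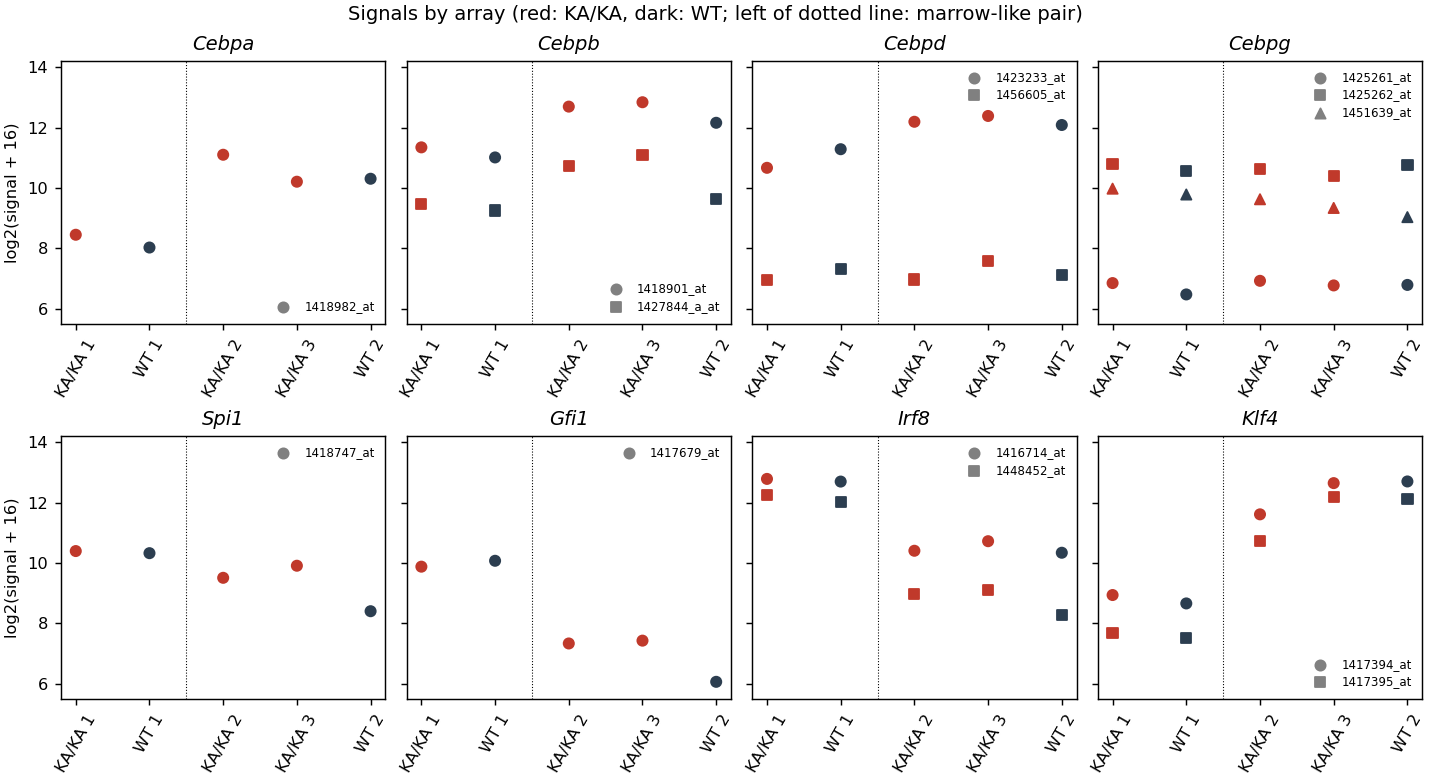
log2(signal + 16) of each of the 14 probe sets (marker shape) on each array, with KA/KA in red and WT in dark blue; the marrow-like pair stands left of the dotted line. Cebpa, Cebpb and Klf4 lie higher and Gfi1 and Irf8 lower on the lung-like arrays, while Cebpg at 1425262_at stays between 10.40 and 10.78.

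Promoter sequence is shown for the 4 members that lay furthest apart between the array sets in 1 direction or the other. The sequences are the 250 bases before the gene start, from RefSeq on GRCm38.p6, written 5′ to 3′ on the strand of the gene, with capitals marking a motif match. Cebpa lies at chr7:35119043-35119292 on the plus strand and Klf4 at chr4:55532476-55532725 on the minus strand. Irf8 lies at chr8:120736108-120736357 on the plus strand and Gfi1 at chr5:107725806-107726055 on the minus strand; each of these genes has a further window, which is not shown.
Cebpa: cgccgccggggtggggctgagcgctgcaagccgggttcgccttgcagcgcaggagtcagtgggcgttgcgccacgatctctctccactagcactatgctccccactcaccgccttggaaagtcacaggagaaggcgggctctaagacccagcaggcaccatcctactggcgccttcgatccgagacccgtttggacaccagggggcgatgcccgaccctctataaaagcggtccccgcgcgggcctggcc
Klf4: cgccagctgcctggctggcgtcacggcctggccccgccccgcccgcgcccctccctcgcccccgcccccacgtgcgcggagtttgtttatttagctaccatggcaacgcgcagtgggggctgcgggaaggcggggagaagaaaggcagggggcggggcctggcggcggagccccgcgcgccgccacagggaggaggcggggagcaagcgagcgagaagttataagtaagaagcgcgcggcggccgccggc
Irf8: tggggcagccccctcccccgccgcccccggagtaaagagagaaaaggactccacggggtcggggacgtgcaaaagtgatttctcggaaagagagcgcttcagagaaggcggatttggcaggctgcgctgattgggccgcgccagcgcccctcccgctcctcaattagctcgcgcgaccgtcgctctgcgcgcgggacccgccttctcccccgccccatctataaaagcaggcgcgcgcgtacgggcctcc
Gfi1: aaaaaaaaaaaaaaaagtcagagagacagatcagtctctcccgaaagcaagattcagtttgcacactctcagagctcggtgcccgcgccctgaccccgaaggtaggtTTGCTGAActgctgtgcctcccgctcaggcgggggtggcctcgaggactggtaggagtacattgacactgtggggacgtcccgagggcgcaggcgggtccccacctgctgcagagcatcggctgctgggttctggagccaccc

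RefSeq promoter windows of 300 bases (250 before and 50 after the start) were at hand for 6 members, through 8 windows. Both strands were searched for the C/EBP motifs TTGCGCAA and TTGCNNAA (the second contains the first), the PU.1 motif GAGGAAGT and a degenerate NF-κB motif. Among all 32851 windows of this length, 0.183%, 10.8%, 3.20% and 1.63% held them, in that order. The member windows held 1 match in all, to TTGCNNAA in Gfi1, from position -143 to -136 relative to the start. GC content over the whole 300-base windows of the sequences shown was 67.3% for Cebpa, 74.3% for Klf4, 70.0% for Irf8 and 58.0% for Gfi1, against a median of 52.7% over all windows. A match is a run of letters and was not tested as a binding site.

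Between the array sets, members lay on both sides. Klf4 and the C/EBP genes Cebpa, Cebpb and Cebpd were higher on the lung-like arrays, and Irf8, Gfi1 and Spi1 were lower there, while Cebpg gave no call. Of 13 member probe sets bright enough to be tested, from 8 genes, 9 passed limma's test of the set difference, 5 upward and 4 downward. Over all 22519 probe sets tested, 35% passed (19.3% higher and 15.8% lower on the lung-like arrays), so a call is common on these arrays and is not particular to the members. Of the calls over all probe sets 55.0% were higher on the lung-like arrays, and 35.8% after median centring of the arrays, which shifts the median of all probe sets to -0.36; the members then gave 5 higher and 5 lower. The sets did not overlap for 11 of the 13 probe sets, where the share over all probe sets was 64.5%. The median difference was 0.09 over the member probe sets and -0.01 over all tested, because the members lay on both sides of 0. Differences are given as lung-like minus marrow-like ± SE in log2 units from limma, adjusted for genotype, with n = 3 and 2 arrays and Benjamini-Hochberg adjustment over all probe sets tested.

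**Figure D2:**
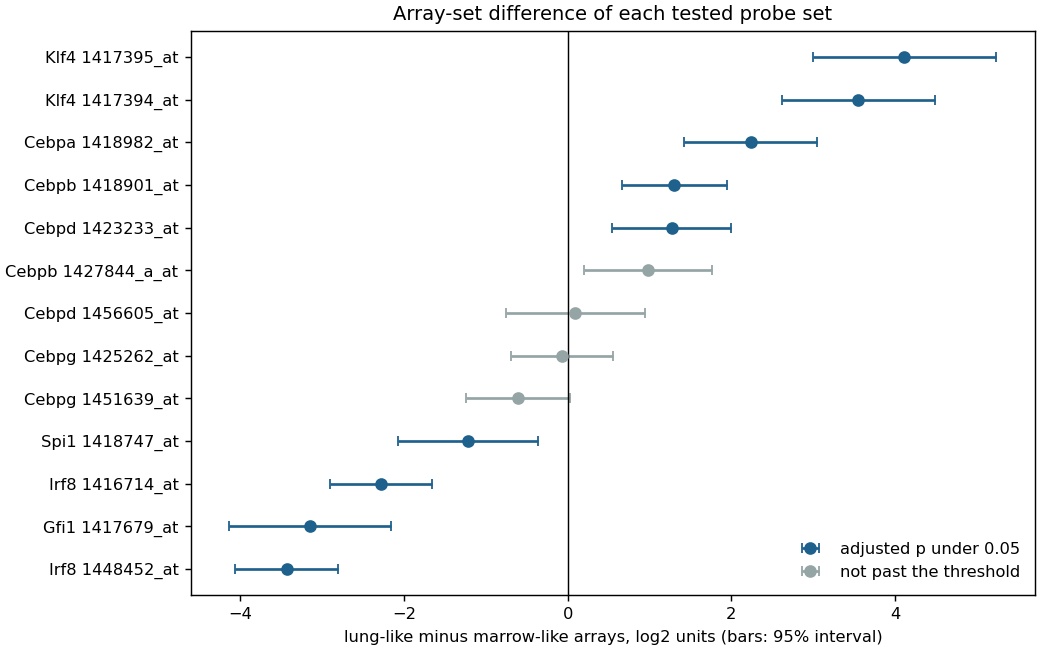
Lung-like minus marrow-like difference of each tested probe set in log2 units, with its 95% interval from limma; blue points passed at an adjusted p under 0.05. Estimates run from -3.43 for Irf8 to 4.11 for Klf4, with Cebpg at 1425262_at (-0.07) and Cebpd at 1456605_at (0.09) nearest to 0 and Cebpg at 1451639_at at -0.60.

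Cebpa, which encodes the factor that starts granulocyte differentiation and also serves the maturation of lung epithelium, has a single probe set here. It read 8.45 and 8.03 on KA/KA 1 and WT 1, and 11.10, 10.21 and 10.31 on KA/KA 2, KA/KA 3 and WT 2. The lung-like arrays were all above the pair, with KA/KA 2 the highest. The difference was 2.23 ± 0.34, or 4.70-fold (limma, adjusted p = 0.00357). The call is lost by leaving out either array of the pair (adjusted p = 0.0579 without KA/KA 1 and 0.0536 without WT 1), with differences of 2.28 and 2.20.

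Cebpb encodes C/EBPβ, the family member tied to inflammation and to emergency production of granulocytes. Its probe set 1418901_at read 11.34 and 11.01 on the pair and 12.69, 12.84 and 12.16 on the lung-like arrays (KA/KA 2, KA/KA 3, WT 2), again without overlap. It was 1.30 ± 0.27 higher there (limma, adjusted p = 0.0113), and this call is lost without KA/KA 1 (adjusted p = 0.0783). The other, 1427844_a_at, read 9.48 and 9.25 against 10.73, 11.08 and 9.63. The sets did not overlap, but WT 2 lay only just above the pair, and the difference of 0.98 ± 0.33 did not pass (limma, adjusted p = 0.0582). Without KA/KA 1 it was 0.38 (adjusted p = 0.552), and without KA/KA 2 it passed at 0.99 (0.0318).

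Cebpd encodes C/EBPδ, induced by inflammatory cytokines. At 1423233_at it read 10.67 and 11.28 on the pair and 12.19, 12.38 and 12.08 on the lung-like arrays. It was 1.27 ± 0.30 higher there (limma, adjusted p = 0.0191), a call lost without KA/KA 1 (adjusted p = 0.167, difference 0.80) and without KA/KA 3 (adjusted p = 0.0517). Its dimmer probe set 1456605_at, close to the array medians, read 6.96 and 7.32 against 6.97, 7.59 and 7.11. Those values overlapped, and the difference was 0.09 (95% interval -0.75 to 0.94), so the probe sets of this gene disagree.

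Cebpg encodes C/EBPγ, a short family member without a transactivation domain of its own that pairs with the others, and it gave no call in either direction. Its bright probe set 1425262_at read 10.78, 10.56, 10.62, 10.40 and 10.75 on KA/KA 1, WT 1, KA/KA 2, KA/KA 3 and WT 2, and the sets overlapped. The difference was -0.07, with a 95% interval of -0.70 to 0.55. At 1451639_at the readings were 9.98 and 9.78 on the pair and 9.63, 9.34 and 9.04 on the lung-like arrays. All lung-like arrays lay below the pair, by -0.60 ± 0.26, without passing (limma, adjusted p = 0.123). The remaining probe set 1425261_at ran from 6.48 to 6.93 over all 5 arrays and was too dim to be tested.

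Spi1 encodes PU.1, needed at different doses by myeloid and B-cell precursors. It read 10.40 and 10.33 on the pair and 9.51, 9.91 and 8.41 on KA/KA 2, KA/KA 3 and WT 2. The pair agreed within 0.07, while the lung-like arrays spread over 1.51, with WT 2 the lowest. The difference was -1.22 ± 0.36 (limma, adjusted p = 0.0394). The call is lost without WT 1 (adjusted p = 0.277) and without WT 2 (0.255), where the difference is -0.69 in both cases. Without KA/KA 1 the difference is -1.92 (0.0479). The call is also lost after quantile normalisation (0.0516).

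Gfi1, a zinc-finger repressor of early lymphoid and neutrophil precursors, read 9.88 and 10.08 on the pair and 7.34, 7.43 and 6.07 on the lung-like arrays. WT 2 fell below its array median of 7.17 and the other lung-like arrays lay close above theirs. The difference was -3.14 ± 0.41, or 8.83-fold lower on the lung-like arrays (limma, adjusted p = 0.00214). With 1 or 64 added in place of 16 it was -3.35 or -2.67.

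Irf8, whose product directs monocyte and dendritic cell fate and is abundant in B cells, was among the brightest probe sets of the pair. At 1448452_at it read 12.24 and 12.02 on the pair and 8.98, 9.11 and 8.29 on the lung-like arrays, a difference of -3.43 ± 0.26 (limma, adjusted p = 0.000425). At 1416714_at it read 12.79 and 12.70 against 10.41, 10.72 and 10.34, a difference of -2.28 ± 0.26 (limma, adjusted p = 0.00131). Both probe sets separated the sets completely in the same direction, though they differ in size.

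Klf4 gave the largest differences among the members upward. At 1417395_at it read 7.70 and 7.53 on the pair and 10.74, 12.18 and 12.11 on KA/KA 2, KA/KA 3 and WT 2. The difference was 4.11 ± 0.47, or 17.3-fold (limma, adjusted p = 0.00130). At 1417394_at it read 8.94 and 8.66 against 11.61, 12.65 and 12.70, a difference of 3.55 ± 0.39 (limma, adjusted p = 0.00119). KA/KA 2 was the lowest of the lung-like arrays at both probe sets. On the same array the mean over 10 endothelial genes was 10.35, against 12.08 and 12.38 on KA/KA 3 and WT 2, and over 7 keratinocyte genes 11.84 against 5.76 and 5.93. The part of either cell type in the Klf4 signal was not tested. Klf4, Gfi1 and Irf8 kept their calls between the sets under every alternative in which they were tested, including each array left out; Gfi1 was too dim for the upper-quarter filter.

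The other genes of the myeloid programme were read from lists that leave the members out. Each gene stands by its brightest probe set. Of 19 neutrophil granule genes, many of them C/EBP targets, 13 were lower and 0 higher on the lung-like arrays (median -3.69). Camp, which encodes an antimicrobial peptide of secondary granules, read 14.00 and 14.75 on the pair and 5.07, 8.09 and 4.61 on the lung-like arrays (difference -8.58 ± 0.97; limma, adjusted p = 0.00127). Ngp, another granule protein, differed by -6.64 ± 0.97. The other 6 of the list, Lcn2, Chil3, S100a8, S100a9, Mmp8 and Lyz2, did not pass. Lcn2, an iron-binding granule protein, read 13.85 and 14.43 on the pair and 14.66, 14.14 and 10.75 on KA/KA 2, KA/KA 3 and WT 2, so only WT 2 was low. Of 20 tested monocyte and macrophage genes 2 were higher (Cd14 by 2.13 ± 0.48 and Siglecf by 2.32 ± 0.32) and 3 lower (Fcgr1, Ccr2 and Cybb), with a median of -0.69. Cd163, a scavenger receptor of macrophages, had the largest difference of this list, -3.30 ± 1.16, and did not pass (limma, adjusted p = 0.0679). Of 10 genes of Irf8-dependent dendritic cells and monocytes, 2 were higher and 4 lower, with a median of 0.21. The higher ones were Itgax, which encodes CD11c (2.44 ± 0.47), and Naaa (1.07 ± 0.27), and the lower ones Bst2, Siglech, Ly6d and Flt3. Bst2 and Siglech, both of plasmacytoid dendritic cells, had the largest differences, -5.11 and -4.35. Bst2 read 10.90 and 11.76 on the pair and 6.71, 5.02 and 6.54 on the lung-like arrays, and Siglech 10.30 and 11.13 against 6.85, 4.88 and 6.87. These lung-like readings are below the array medians, where the size of a difference depends on the constant added.

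Of 9 relatives and partners of the C/EBP genes, 4 were higher (median 0.43) and 0 lower: Ddit3, which encodes the stress-induced C/EBP relative CHOP, and the bZIP factors Dbp, Hlf and Tef. Tef, a clock-regulated factor, read 9.52 and 9.15 on the pair and 11.51, 11.54 and 11.77 on the lung-like arrays (difference 2.27 ± 0.27). Of 26 other transcription factors listed here as myeloid 6 were higher and 11 lower (median -0.08). The lower ones included the PU.1 relatives Spib (-4.82 ± 0.40) and Spic (-4.80 ± 0.82), and the higher ones included Egr2 (1.67 ± 0.53), a zinc-finger factor of macrophages. Egr2 only just passed (limma, adjusted p = 0.0485), and its reading on WT 2, 7.34, was close to 7.12 and 6.67 on the pair. It was not the largest upward difference of the list, which reached 2.64. The part of myeloid and of B-lineage cells in these differences was not tested. Among 11 myeloid growth factor receptors 3 were higher, namely Kit (2.23 ± 0.52), Il6st (1.36 ± 0.28) and Csf2rb (1.29 ± 0.40), and 1 was lower, Flt3; the median was 0.62. Counts are at an adjusted p under 0.05 in the fit over all 22519 probe sets, of which 35% passed.

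**Figure D3:**
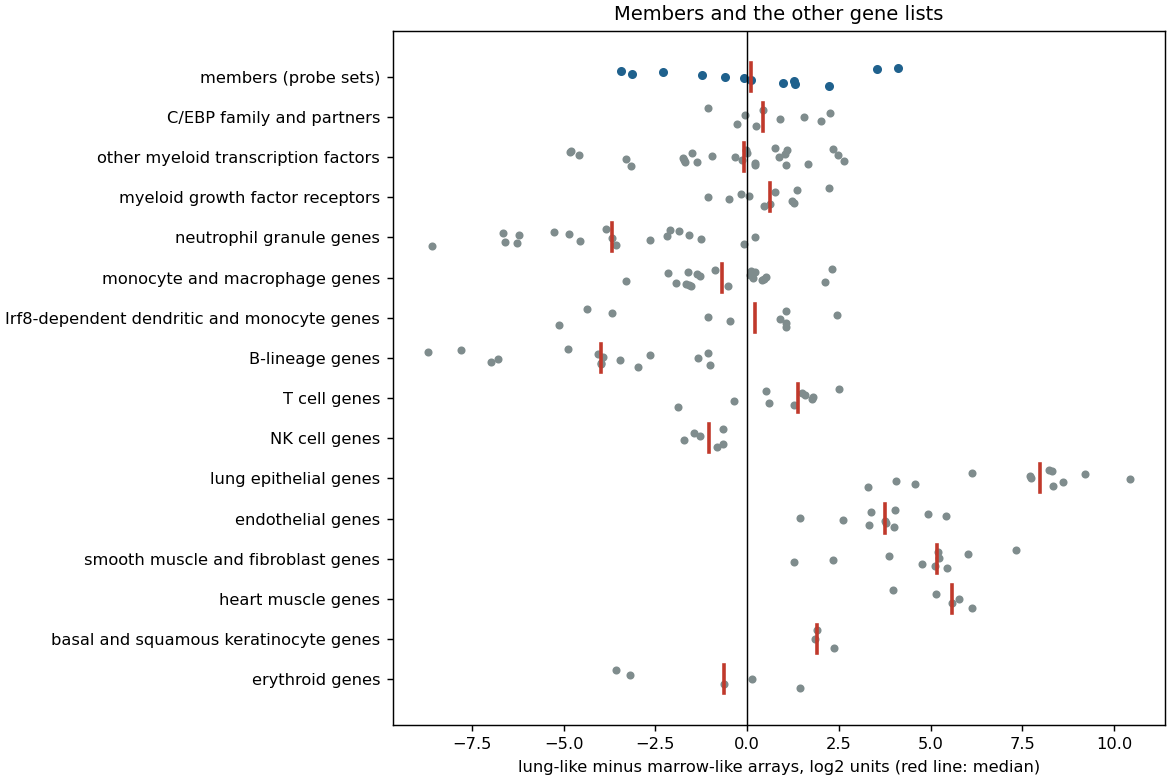
Lung-like minus marrow-like difference in log2 units of each tested gene of each list (grey points, brightest probe set per gene) and of the 13 member probe sets (blue), with the median as a red line. The members spread on both sides of 0, neutrophil granule and B-lineage genes lie to the left, and lung epithelial genes lie to the right with a median of 7.98.

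Lists of other cell types also differed between the array sets. Lung epithelial genes were higher on the lung-like arrays for 12 of 12 tested (median 7.98), endothelial genes for 9 of 10 (3.77), smooth muscle and fibroblast genes for 9 of 10 (5.16) and heart muscle genes (Myh6, Actc1, Myl7, Tnnt2 and Tnni3) for 5 of 5 (5.59). The filter takes the mean over all arrays, so a gene dim on 1 set is tested only if bright on the other. On each array of the pair, 11 of 14 lung genes and 5 of 6 heart genes with a probe set lay below the array median. Their counts are thus in part fixed by the filter. B-lineage genes were lower for 12 of 15 (median -3.97) and NK cell genes for 3 of 6 (Ncr1, Nkg7 and Klrd1; -1.05). T cell genes gave 1 higher (Thy1) and 1 lower (Cd2) of 10 (1.39), and erythroid genes 1 higher (Alas2) and 2 lower (Klf1 and Slc4a1) of 5 (-0.63). Keratinocyte genes gave none of 3 (median 1.92), being bright on KA/KA 2 alone. The part of these cells in the signals of the C/EBP genes, Spi1, Gfi1, Irf8 and Klf4 was not tested.

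KA/KA and WT were then compared inside the array sets. In the marrow-like pair B-lineage genes were bright (mean 12.51 and 12.60 on KA/KA 1 and WT 1). Neutrophil granule genes were as bright (mean 12.55 and 13.23 on KA/KA 1 and WT 1), which goes beyond the B220 label of these arrays. The part of neutrophils in the member signals of the pair was not tested. Of 19 granule genes, 0 were higher on KA/KA 1 than on WT 1 (median -0.60). The members were close in the pair: the largest gap among the 13 tested probe sets was 0.62, for Cebpd. None of the 13 reached 1 log2 unit, where 4.41% of all probe sets did. Readings were above WT 1 on KA/KA 1 for 10 of 13 and below it for 3, both of Cebpd and that of Gfi1, with a median of 0.19 (0.05 over all probe sets, of which 54.2% lay above 0). Cebpa differed by 0.42, Cebpb by 0.33 and 0.23, Klf4 by 0.28 and 0.16, Irf8 by 0.09 and 0.22, and Spi1 by 0.07. This is 1 array against 1, so these differences have no replicate check.

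The lung-like arrays differed more, and their values rest on WT 2 alone, which KA/KA 2 and KA/KA 3 share. Spi1 was above WT 2 by 1.11 on KA/KA 2 and by 1.51 on KA/KA 3, Gfi1 by 1.27 and 1.36, and Cebpb at 1427844_a_at by 1.09 and 1.45. The Gfi1 reading on WT 2, 6.07, is below the array median, so the size of its difference depends on the constant added: its estimate over all arrays, 0.67, is 0.80 with 1 added and 0.44 with 64. Klf4 lay lower on KA/KA 2 alone (-1.37 and -1.09) and near WT 2 on KA/KA 3 (0.08 and -0.05). Cebpa was 0.79 higher on KA/KA 2 and differed by -0.10 on KA/KA 3. Of the 13 probe sets, 5 differed from WT 2 by 1 log2 unit or more on KA/KA 2 and 3 on KA/KA 3, where 14.4% and 9.27% of all probe sets did.

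**Figure D4:**
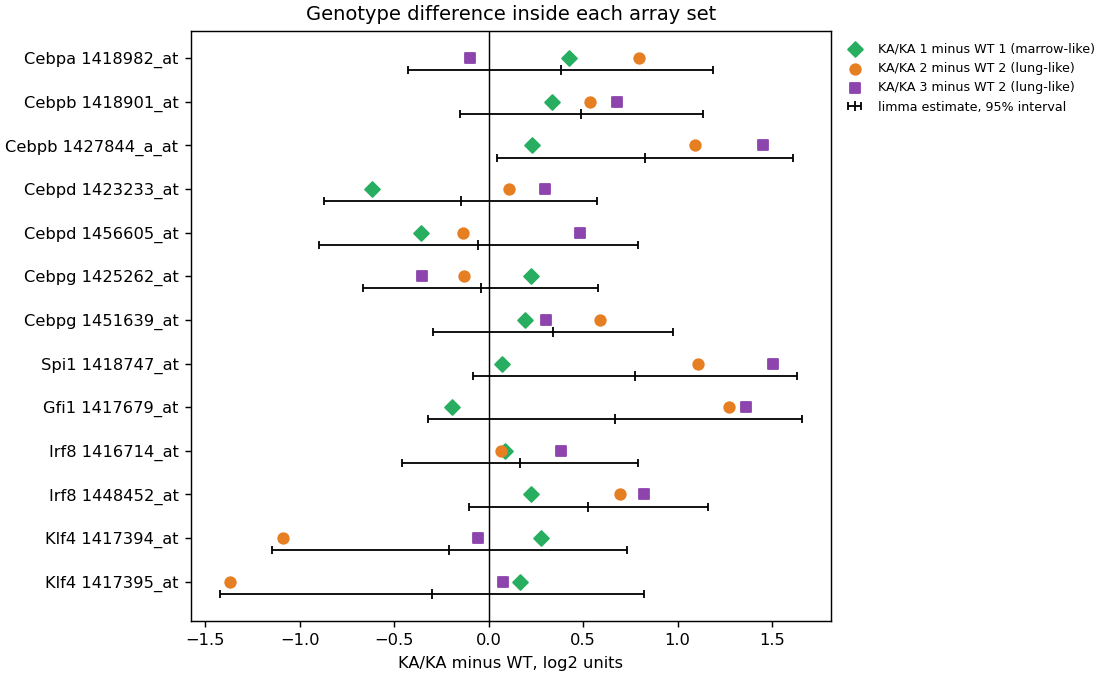
KA/KA minus WT in log2 units for each tested probe set, for the 3 differences between single arrays (coloured markers) and for the limma estimate with the array set as a block (black bar, 95% interval). In the marrow-like pair (green) all differences lie within 0.62 of 0, while Spi1, Gfi1 and Cebpb at 1427844_a_at reach over 1 on both lung-like KA/KA arrays.

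With the array set as a block, limma called 0 of the 13 member probe sets and 0 of all 22519 (0%) between KA/KA and WT (n = 3 and 2), and the smallest adjusted p was 0.9996, for the members and over all. At an unadjusted p under 0.05 stood 1 member probe set and 673 of all (2.99%). That member was Cebpb at 1427844_a_at, with 0.83 ± 0.33 (limma, unadjusted p = 0.0415, adjusted p = 0.9996), above the WT array of its set on 3 of 3 KA/KA arrays. Its brighter probe set stood at 0.49 ± 0.27, with a 95% interval of -0.15 to 1.13.

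Spi1 differed by 0.78 ± 0.36 (95% interval -0.08 to 1.63), Gfi1 by 0.67 ± 0.41 (-0.32 to 1.66) and Cebpa by 0.38 ± 0.34 (-0.43 to 1.19). Irf8 differed by 0.53 ± 0.26 (-0.10 to 1.16) at 1448452_at and by 0.17 ± 0.26 (-0.46 to 0.79) at 1416714_at. Klf4 stood at -0.30 ± 0.47 (-1.42 to 0.82) and -0.21 ± 0.39 (-1.15 to 0.73). Cebpd stood at -0.15 ± 0.30 (-0.87 to 0.58) at its bright probe set. None of these passed, and the intervals leave room for changes of over 1 log2 unit for Cebpa, Cebpb, Spi1, Gfi1 and Irf8 upward and for Klf4 downward. These estimates rest in large part on single arrays. Without WT 2, where only the pair informs the genotype, Spi1 stood at 0.07, Cebpb at 1427844_a_at at 0.23 and Irf8 at 0.09 at 1416714_at and 0.22 at 1448452_at, while Gfi1 stood at -0.19 and Klf4 at 0.16 and 0.28, and without KA/KA 2 Klf4 stood at 0.12 and 0.11 and Cebpa at 0.16.

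All 3 KA/KA arrays lay above the WT array of their own set for 6 of 13 member probe sets, against 15.5% over all probe sets, and below it for 0 of 13, against 14%. The 6 come from 4 genes: both probe sets of Cebpb and of Irf8, 1 of Cebpg and that of Spi1. The median estimate was 0.34 over the member probe sets and 0.01 over all tested, and 8 of 13 members lay above 0, against 51.5% of all. Probe sets of 1 gene share their target, and all members share the same arrays. Gfi1 differed by -0.19 in the pair and by over 1 in the lung-like arrays, but its interaction of genotype with array set, 1.51 ± 0.59, did not pass (limma, adjusted p = 0.824). The interaction was called for 0 of 13 members (0 at an unadjusted p under 0.05) and for 0 of 22519 probe sets (0%; 1325, or 5.88%, at an unadjusted p under 0.05), a fit with 1 residual degree of freedom.

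Markers of several cell types also differed between KA/KA and WT on the lung-like arrays. The monocyte and macrophage median was larger on KA/KA 2, and the neutrophil granule and T cell medians were larger on KA/KA 3. Spi1, Gfi1 and Cebpb at 1427844_a_at lay further above WT 2 on KA/KA 3. Monocyte and macrophage genes lay above 0 in the blocked fit for 20 of 20 tested (median 1.18, 0 past the test), with medians of 2.03 and 1.11 on KA/KA 2 and KA/KA 3 against WT 2 and of 0.08 in the pair. The mean level over 21 of them was 11.31, 10.89 and 9.52 on KA/KA 2, KA/KA 3 and WT 2, and 11.06 and 10.85 on KA/KA 1 and WT 1. Neutrophil granule genes had medians of 0.47 and 1.51 against WT 2, and -0.60 in the pair. T cell genes had medians of 0.91 and 1.98 against WT 2. Endothelial genes had medians of -2.39 and -0.22, and heart muscle genes of -6.85 and -2.46. The part of these cells in the differences of Spi1, Gfi1, Cebpb, Irf8 and Klf4 was not tested.

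The other myeloid genes had no call between genotypes either. Other myeloid transcription factors lay above 0 for 20 of 26 (median 0.42), with Egr2 at 1.45 ± 0.53, from 7.12 and 6.67 on KA/KA 1 and WT 1 to 10.08, 9.001 and 7.34 on KA/KA 2, KA/KA 3 and WT 2. Spic stood at 1.29 ± 0.82. Myeloid growth factor receptors lay above 0 for 9 of 11 (median 0.47). Csf2rb, the shared signalling chain of the receptors for GM-CSF, IL-3 and IL-5, had the largest estimate among them at 1.33 ± 0.40, with 10.74 and 10.24 in the pair and 12.96, 12.33 and 10.70 on the lung-like arrays. C/EBP relatives and partners lay above 0 for 4 of 9 (median -0.04), with Nfil3, a bZIP repressor, at 1.15 ± 0.43. Neutrophil granule genes lay above 0 for 13 of 19 (median 0.28), with S100a9 at 1.88 ± 0.92, and Irf8-dependent genes for 5 of 10 (0.08). Each of these had 0 genes past limma's test at an adjusted p of 0.05.

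Patterns like those of the members were sought by Pearson's r over the 5 arrays among 11391 other genes, each by its brightest tested probe set. With so few arrays in 2 sets, high values are common and are a description. For Klf4, 1482 genes (13.0%) had r of at least 0.95, led by Srgap1, Pald1 and Cyp2b10; for Irf8 there were 1167 (10.2%), led by Blm, Fbxo22 and Recql4. Cebpa was matched by 874 genes (7.67%), led by Hadh, Vill and Slc6a8, and Gfi1 by 897 (7.87%), led by Birc5, BC064078 and Cep55. Cebpb was matched by 351 genes, led by Rab7, Rabgef1 and Sema5a, and Cebpd by 298, led by Ago3, Chmp5 and Unc50. Spi1 was matched by 159 genes (1.40%), led by Alox5, Scand1 and Ikzf3. Cebpg, read at 1425262_at, where the array sets overlapped, was matched by 17 (0.149%), led by Trim36, Scoc and Got2. Among the members themselves r was 0.93 for Cebpa with Cebpb, 0.97 for Gfi1 with Irf8 and -0.96 for Gfi1 with Klf4 and for Irf8 with Klf4.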

How the data were processed

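The deposited table holds 45101 probe sets by 5 arrays. The submitters' processing notes name MAS5 and give no version; a log2 step is mentioned in the series text, but the deposited intensity values are linear, with a highest signal of 21977 to 40821 and a trimmed mean of 500.0 on every array (2% left out at each end). log2(signal + 16) was computed, and the 64 control probe sets were left out. Of the rest, the brighter 22519 (mean log2 signal over the arrays not under the median) were tested one by one: 13 of the 14 member probe sets passed. limma 3.58.1 in R 4.3.3 fitted genotype and array set (lmFit and trended eBayes); tests were two-sided, p-values were adjusted by Benjamini-Hochberg and the threshold was 0.05. The array sets come from 24 poly-A control probe sets: a median log2 signal of at least 10 defines the marrow-like pair. A further fit added the interaction. The fits were also run on simulated data with independent noise in each probe set. Shifts shared by many probe sets of an array were not simulated.

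Names came from the annotation of the platform: 34958 had 1 symbol, 932 had several and went unnamed, and 9211 had none there. RefSeq promoters matched 6 of the 9 members. The members, gene lists, sets and tests were chosen with earlier results of these data known. All members are named; of each list, the genes called between genotypes, or else up to 2 with the largest difference between sets and up to 2 between genotypes, beside the genes that make up a count of 5 or fewer calls between sets, the granule genes without a call, Rag1, Ptprc, Il7r and Cd24a, which were named after their values were seen. Cd79b, Ms4a1 and Blnk were also named after their values were seen. Likeness gives 3 genes per member. Alternatives were other constants (1 and 64), quantile normalisation, median centring, no filter or an upper-quarter one, untrended and robust eBayes, 1 probe set per gene, leaving out shared probe sets, other model terms, the replicate number as a block, the lung-like arrays alone, and each array left out.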

Additional observations from a re-analysis of the deposited data

How the results depend on the processing

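Between the array sets, the count of member probe sets past limma's test was 6 to 10 over all alternatives, against 9, and that over all probe sets was 7885 in the reported fit, 3758 with the upper-quarter filter and 4064 with 1 probe set per gene (fewer were tested in both), and 3123 to 8572 with 1 array left out. The median of all probe sets between the sets was -0.01 as reported, -0.13 after quantile normalisation and -0.36 after median centring, which moved the share of calls that were higher on the lung-like arrays from 55.0% to 35.8% (3353 higher and 6017 lower); among the members 5 stayed higher, and 5 in place of 4 were lower. Spi1 also lost its call with no filter (adjusted p = 0.0607) and with no genotype term (0.0855), and Cebpg at 1451639_at gained one after median centring (-0.96, adjusted p = 0.0293). Cebpd at 1456605_at turned to -0.25 after quantile normalisation and -0.26 after median centring; with 1 array left out it ran from -0.21 to 0.32 (below 0 without KA/KA 1 and without KA/KA 3), and Cebpg at 1425262_at from -0.27 to 0.19 (above 0 without the same arrays). Cebpb at 1427844_a_at ran from 0.38 to 1.43 and passed without KA/KA 2 alone, and Spi1 ran from -1.92 to -0.69.

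Between genotypes no member passed under any alternative, and 0 probe sets passed in all except the fit with the replicate number as a block (3) and the fits with 1 array left out (0 to 6; 6 without KA/KA 2 and 2 without KA/KA 3). With no array-set term, the signs turned for Cebpd at 1423233_at (0.063), Irf8 (-0.21 and -0.044) and Klf4 (0.38 and 0.39). With the replicate block, which leaves KA/KA 3 without a partner, Cebpg at 1425262_at turned to 0.044. Replicate numbers are shared by 2 pairs, and the labels do not say that they mark litters or days. Deviations from the group means correlated at 0.87 for the arrays numbered 1 and 0.65 for those numbered 2, the split of the array sets. KA/KA 3 and WT 2, which share no number, correlated at 0.77. The deviations of the 2 WT arrays mirror each other, so these values are not independent. On the lung-like arrays alone Cebpd stood at 0.20 and 0.17. With 1 array left out, Cebpd ran from -0.62 to 0.20 at 1423233_at and from -0.36 to 0.17 at 1456605_at, Cebpg at 1425262_at from -0.24 to 0.22, Gfi1 from -0.19 to 1.32, Spi1 from 0.07 to 1.31, Cebpb at 1427844_a_at from 0.23 to 1.27, Irf8 at 1448452_at from 0.22 to 0.76, Cebpa from 0.16 to 0.61, and Klf4 from -0.57 to 0.28 at 1417394_at and from -0.65 to 0.16 at 1417395_at. The causes were not tested. Over the alternatives together, 206 genotype values of member probe sets kept their sign and side of the threshold and 20 changed sign; between the sets, 183 kept both, 10 lost a call, 2 gained one and 6 changed sign. The interaction was called for 0 probe sets with either constant, either scaling or no filter.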
